A study of Mus musculus with 6 samples.

Results

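Messenger RNA of 10 target genes of the transcription factor p53 was followed in mouse myoblasts in which a Dux-type factor was switched on. The 10 genes, Cdkn1a, Mdm2, Ccng1, Sesn1, Sesn2, Phlda3, Trp53inp1, Zmat3, Btg2 and Rrm2b, were taken by symbol from a list of p53 targets that act mainly in cell cycle arrest, feedback and repair rather than in cell death, and all 10 were found among the 24028 genes of the count table. The cells were a clone of C2C12, an immortalised mouse myoblast line, selected with puromycin for a doxycycline-inducible transgene called MMH that joins the homeodomain part of mouse Dux to the part of human DUX4 behind its homeodomains, both codon-altered. Of 6 separately grown cultures, 3 were given 2 µg/ml doxycycline (induced) and 3 were not (uninduced). All 6 carried the transgene, all came from 1 clone, and cells that got the drug but lack the transgene were not analysed here, so drug and transgene cannot be told apart. The series text puts the induction at 18 h and the sample protocol at 36 h.

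p53 is held at a low level by Mdm2, a ubiquitin ligase that marks it for destruction, and by Mdm4, a relative of Mdm2 that blocks its activity. When DNA is damaged, kinases such as ATM and CHK2 release p53 from this hold and it activates genes for arrest (Cdkn1a, which encodes p21), for its own inhibition (Mdm2), for nucleotide supply and repair (Rrm2b) and for metabolic restraint (the sestrins). Several of these genes also answer to other stress factors. Sesn2, for example, is known as a target of ATF4, the main transcription factor of the integrated stress response.

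The libraries held 21.5 to 24.5 M counts each. Levels are given below as CPM, counts divided by library sizes that were scaled with TMM factors, and a gene is called changed when its Benjamini-Hochberg adjusted p from edgeR's quasi-likelihood test, adjusted over all 12969 genes tested, was under 0.05. As a check of the labels, the Dux gene had 252, 216 and 220 counts in induced libraries, against 1, 3 and 0 in uninduced libraries, which is the direction the labels give. The codon-altered transgene need not be counted at that row. The summed level of 6 myoblast markers was 1184 to 1221 CPM in induced libraries and 1997 to 2008 CPM in uninduced libraries. Of the 6, 5 were called lower, against 41.2% of all genes tested. Scaled by library totals alone, all 6 were called lower, against 76.7% of all genes tested. The summed levels of 4 markers each were 1.03 to 1.48 CPM in induced and 0.808 to 1.31 CPM in uninduced libraries for macrophages, and 0.402 to 0.582 CPM in induced and 0.459 to 0.658 CPM in uninduced libraries for epithelium. For endothelium they were 2.05 to 2.41 CPM in induced and 0.0647 to 0.459 CPM in uninduced libraries, and for osteoblasts 0.861 to 1.23 CPM in induced and 2.78 to 3.43 CPM in uninduced libraries. The 4 adipocyte markers summed to 13.8 to 14.6 CPM in induced and 8.31 to 10.3 CPM in uninduced libraries. Among them Fabp4 was called higher (mean 7.06 CPM induced, 0.466 uninduced) and Pparg lower (6.89 induced, 8.74 uninduced), and Adipoq and Plin1 were not tested. The 4 neuronal markers, mostly Tubb3, summed to 114 to 122 CPM in induced and 76.6 to 82.8 CPM in uninduced libraries. Tubb3 and Syt1 were called higher and Map2 lower (mean 12.3 CPM induced, 20.8 uninduced), and Rbfox3 was not tested. With library totals alone, the log2 fold changes were -0.21 for Tubb3, 2.68 for Syt1 and -1.72 for Map2. No marker of these types was at 0 in every library, and the part of such shifts in the results was not tested. In RNA from a whole culture, fewer cells of a type and less RNA per cell cannot be told apart.

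The 10 targets did not move as a group. Sesn2, Btg2, Mdm2, Trp53inp1 and Ccng1 rose in induced cells, Zmat3, Sesn1 and Rrm2b fell, and Cdkn1a and Phlda3 did not pass the test. Scaled by library totals alone, Trp53inp1 and Ccng1 lay below 0, as given with the other scalings. The changes ran over 4 log2 units, with Sesn2 8.06-fold higher and Rrm2b 2.26-fold lower. Of the 10 members, 8 were called, against 82.5% of all genes tested. The 5 called higher stood against a background of 41.3%, and the 3 called lower against 41.2%, so these shares lay near those of the whole transcriptome. The median log2 fold change of the members was 0.39, against -0.01 over all genes tested. Induced and uninduced libraries kept apart without overlap for 9 of the 10, all but Phlda3, against 83.1% of all genes tested. All 10 passed the filter on low counts, with at least 103 counts for each in every library.

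**Figure D1:**
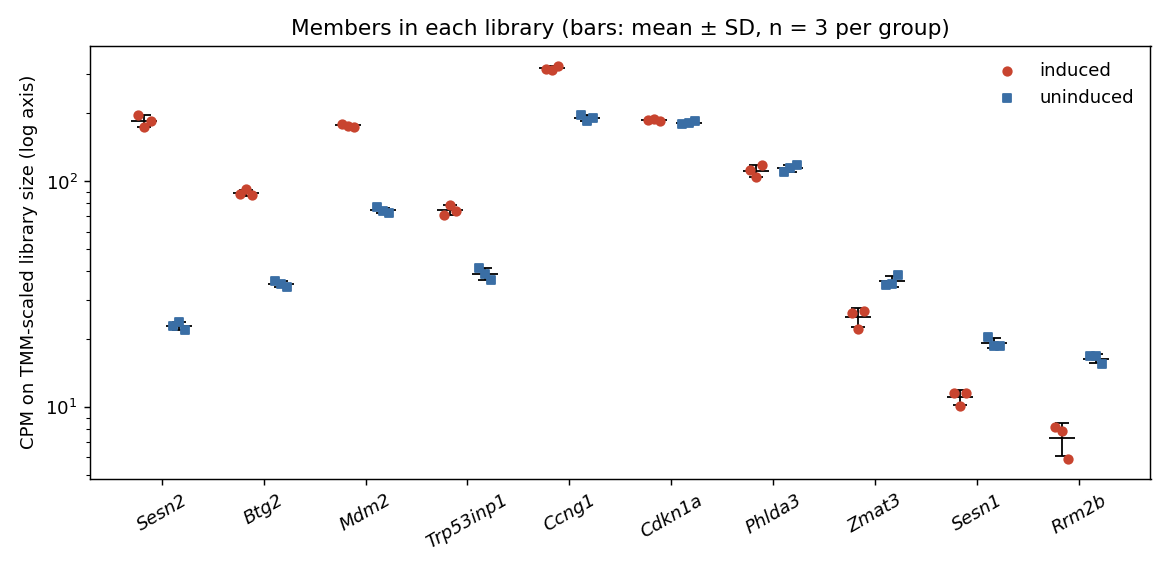
CPM of the 10 members in each library on a log axis, induced libraries (circles) left of uninduced libraries (squares), with mean and SD (n = 3 per group) as black bars, ordered by fold change. Sesn2 is at 174 to 197 CPM in induced and 22.03 to 23.97 CPM in uninduced libraries, whereas the groups nearly touch for Cdkn1a and overlap for Phlda3.

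Among the genes of cell cycle arrest, Cdkn1a encodes p21, the inhibitor of cyclin-dependent kinases through which p53 halts the cycle. The gene spans positions 29090979 to 29100722 of chromosome 17 (GRCm38, plus strand). Its level was 187, 188 and 185 CPM in induced libraries and 180, 181 and 184 CPM in uninduced libraries. The lowest induced library lay just above the highest uninduced one, and the log2 difference, 0.04 ± 0.04 (SE, adjusted p = 0.358 by edgeR), was no larger than its error. Btg2, an antiproliferative protein that brings the CCR4-NOT deadenylase to messenger RNAs, had 88.5, 92.2 and 87.0 CPM in induced libraries, against 36.3, 35.2 and 34.1 CPM in uninduced libraries. Every induced library was above every uninduced one, and Btg2 rose 2.53-fold (log2 1.34 ± 0.05 SE, edgeR adjusted p = 1.3e-17). Ccng1 encodes cyclin G1, which recruits phosphatase PP2A and acts on Mdm2. It had 315, 312 and 326 CPM in induced and 196, 185 and 191 CPM in uninduced libraries. The groups did not overlap, and Ccng1 rose 1.67-fold (log2 0.74 ± 0.04 SE), the smallest of the 5 called increases.

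Mdm2, Trp53inp1 and Phlda3 feed back on p53 or on growth signals, and the first 2 of them rose. Mdm2, at 117688875 to 117710758 of chromosome 10 (minus strand), had 179, 177 and 175 CPM in induced libraries and 76.8, 73.9 and 72.6 CPM in uninduced libraries. Its libraries differed little within a group and did not overlap between groups, with a 2.38-fold rise (log2 1.25 ± 0.04 SE, edgeR adjusted p = 1.8e-18). Trp53inp1, a p53-induced nuclear protein that takes part in p53 phosphorylation and in autophagy, had 71.2, 78.8 and 74.0 CPM in induced and 41.3, 39.0 and 36.6 CPM in uninduced libraries. It rose 1.91-fold (log2 0.94 ± 0.06 SE). Phlda3, a pleckstrin-homology protein that competes with AKT for membrane lipids, had 113, 105 and 118 CPM in induced and 110, 115 and 118 CPM in uninduced libraries. These ranges overlapped, and it stood at -0.03 ± 0.05 on the log2 scale (SE, adjusted p = 0.525 by edgeR).

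The sestrins restrain the growth kinase mTORC1 and protect against oxidants, and the 2 members of that family went opposite ways. Sesn2 lies on chromosome 4 at 132492804 to 132510456 (minus strand), and Sesn1 on chromosome 10 at 41810574 to 41908436 (plus strand). Sesn2 had 197, 174 and 185 CPM in induced libraries, against 22.96, 23.97 and 22.03 CPM in uninduced libraries. Its increase (log2 3.01 ± 0.05 SE, edgeR adjusted p = 6.2e-24) was rank 619 of 12969 from the top. Sesn1 had 11.6, 10.2 and 11.5 CPM in induced libraries and 20.5, 18.7 and 18.7 CPM in uninduced libraries. Sesn1 fell 1.74-fold (log2 -0.80 ± 0.08 SE, edgeR adjusted p = 5.8e-09), with no overlap of groups. The number of Sesn2 counts per Sesn1 count, which no scaling of libraries can change, was 17.03, 17.10 and 16.05 in induced libraries and 1.12, 1.28 and 1.18 in uninduced libraries. On the log2 scale the ratio averaged 4.06 ± 0.05 in induced and 0.25 ± 0.10 in uninduced libraries (SD, n = 3 each), a difference of 3.81. The exact two-sided permutation test gave p = 0.1, the smallest that 3 against 3 libraries allow.

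Among the genes of DNA damage and RNA control, Rrm2b encodes p53R2, the small subunit of ribonucleotide reductase that supplies nucleotides outside S phase. It lies on chromosome 15 at 37923952 to 37961119 (minus strand). It had 8.15, 7.83 and 5.91 CPM in induced libraries, against 16.8, 16.9 and 15.5 CPM in uninduced libraries. Induced replicate 3 was the lowest, with 103 counts, and the groups stayed apart. Rrm2b fell by 1.17 ± 0.10 (SE, edgeR adjusted p = 2.3e-10) on the log2 scale. Zmat3, a zinc-finger RNA-binding protein also called Wig1, had 26.2, 22.3 and 26.7 CPM in induced and 34.8, 35.3 and 38.5 CPM in uninduced libraries. Zmat3 fell by 0.53 ± 0.07 (SE, edgeR adjusted p = 2.4e-07), the smallest of the 3 called decreases.

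Divided by the length of the exons in GENCODE, the order of the levels changed. In induced cells Ccng1 was highest at 90.5 ± 2.04 CPM per kb, followed by Phlda3 at 77.8 ± 4.71, Cdkn1a at 68.8 ± 0.677, Mdm2 at 56.3 ± 0.650 and Sesn2 at 53.3 ± 3.35 CPM per kb (SD, n = 3). In uninduced cells Phlda3 led at 79.7 ± 2.78 CPM per kb, followed by Cdkn1a at 66.9 ± 0.860, Ccng1 at 54.3 ± 1.62 and Mdm2 at 23.7 ± 0.672 CPM per kb, with Sesn2 only the seventh at 6.61 ± 0.280 CPM per kb (SD, n = 3). Rrm2b was lowest in both, at 1.60 ± 0.265 CPM per kb in induced and 3.60 ± 0.169 CPM per kb in uninduced cells. Neighbours in this order whose libraries overlapped were Mdm2 with Sesn2 and Zmat3 with Sesn1 in induced cells, and Trp53inp1 with Sesn2 and Sesn1 with Zmat3 in uninduced cells. The exon lengths are those of all basic transcripts joined, and which transcripts these cells use was not measured.

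How far each member moved depended on how libraries were scaled. When libraries were scaled by their plain totals alone, written below as plain library sizes, the median of all genes tested was -0.97 on the log2 scale, against -0.01 with TMM. Sesn2, Btg2 and Mdm2 were then still higher, at 2.05, 0.38 and 0.28, and Rrm2b, Sesn1 and Zmat3 still lower, at -2.14, -1.76 and -1.49. Ccng1 turned to -0.23, Trp53inp1 to -0.03 (edgeR adjusted p = 0.638) and Cdkn1a to -0.92. The count was then 3 higher and 6 lower, against 15.2% and 76.7% of all genes tested. The order of the 10 members stayed the same under both scalings. A change of scaling shifts all genes by nearly the same amount, so this order is not a separate check. Measured from the median of all genes, Cdkn1a and Phlda3 lay at 0.05 and -0.02, Mdm2 at 1.26 and Rrm2b at -1.16.

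**Figure D2:**
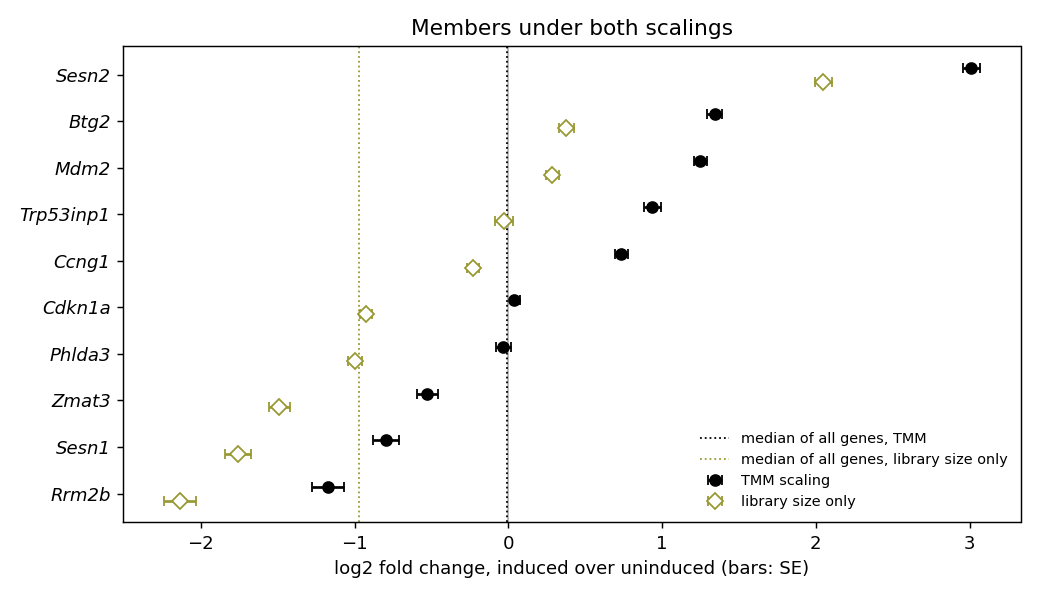
Log2 fold change of each member, induced over uninduced, with TMM scaling (filled circles) and with library size only (open diamonds), with SE as bars and the median of all genes tested as dotted lines. Both scalings give the order from Sesn2 at 3.01 or 2.05 down to Rrm2b at -1.17 or -2.14, as scaling shifts members almost equally. Ccng1, Trp53inp1 and Cdkn1a (0.04 or -0.92) are on different sides of 0.

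Windows from 250 bases before to 50 bases after annotated starts were found in RefSeq (GRCm38.p6, the assembly also called mm10) for 7 members, 9 windows in all. No window was given for Trp53inp1, Zmat3 or Rrm2b. The p53 motif, searched as 2 adjacent 10-base units with at most 1 base off in 20, was found in 2 of these 9 windows and in 0.0883% of 32851 windows of all genes. It lay in the window of the upstream start of Cdkn1a and in that of Ccng1, 1 gene that was not called and 1 that rose. A single exact 10-base unit was in 4 of the 9 windows, of Cdkn1a, Ccng1, Mdm2 and Sesn1, and in 8.36% of all windows. The window of Btg2 held TGACGTCA, the full cAMP response element to which CREB and ATF proteins bind, which 1.79% of all windows hold. CCAAT or its reverse complement was in 6 of the 9 windows and in 37.4% of all windows. TGATGNAA, the core of C/EBP-ATF elements, which 3.97% of all windows hold, was in 0 of the 9. GGGCGG or its reverse complement was in 7 of the 9 and in 35.7% of all windows. TATAAA was in 0 of the 9 and in 13.6% of all windows. Motifs were searched on both strands and were chosen after the sequences were seen. A match is a stretch of letters, not a measured site, and known p53 sites in introns, as in Mdm2, fall outside such windows. The 250 bases before 4 starts are shown, those with the p53 motif for a member that was not called and one that rose, that of the strongest riser and that with the cAMP response element, with the p53 motif, CCAAT in either orientation and TGACGTCA in capitals. They lie at chr17:29090729-29090978 on the plus strand for Cdkn1a, and on the minus strand at chr11:40755287-40755536 for Ccng1, chr4:132510457-132510706 for Sesn2 and chr1:134079156-134079405 for Btg2.
Cdkn1a: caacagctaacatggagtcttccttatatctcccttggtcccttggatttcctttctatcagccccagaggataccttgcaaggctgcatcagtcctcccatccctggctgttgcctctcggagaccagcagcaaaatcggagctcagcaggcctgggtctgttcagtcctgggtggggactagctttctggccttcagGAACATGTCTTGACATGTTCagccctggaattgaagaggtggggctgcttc
Ccng1: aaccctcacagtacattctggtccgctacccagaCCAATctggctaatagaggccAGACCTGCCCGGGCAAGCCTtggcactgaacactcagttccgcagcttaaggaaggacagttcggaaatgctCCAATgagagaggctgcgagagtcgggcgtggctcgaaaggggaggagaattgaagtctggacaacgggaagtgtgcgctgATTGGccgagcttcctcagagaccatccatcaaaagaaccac
Sesn2: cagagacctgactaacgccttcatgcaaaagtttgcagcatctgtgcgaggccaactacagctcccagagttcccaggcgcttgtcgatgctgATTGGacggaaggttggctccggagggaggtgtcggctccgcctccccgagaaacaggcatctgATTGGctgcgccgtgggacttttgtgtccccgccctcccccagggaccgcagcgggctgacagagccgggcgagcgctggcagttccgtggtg
Btg2: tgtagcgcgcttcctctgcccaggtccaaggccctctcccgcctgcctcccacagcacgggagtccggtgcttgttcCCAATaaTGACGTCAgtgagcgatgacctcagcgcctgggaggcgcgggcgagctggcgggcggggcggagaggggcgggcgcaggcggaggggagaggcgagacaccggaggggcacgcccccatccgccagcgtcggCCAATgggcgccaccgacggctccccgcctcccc

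Of 19 relatives of the members, 16 had enough counts to be tested. Of these, 10 were higher, 4 lower and 2 not called, or 8 higher and 8 lower on plain library sizes. Of all genes tested, 41.3% were higher and 41.2% lower, or 15.2% and 76.7% on plain library sizes. These shares stand beside the counts of the later lists too. The whole BTG/Tob family of antiproliferative proteins, apart from Btg4 with no count in any library, rose with Btg2, and all 5 stayed above 0 on plain library sizes. Btg1 rose by 1.16 ± 0.04, Btg3 by 1.57 ± 0.04, Tob1 by 1.32 ± 0.05 and Tob2 by 1.73 ± 0.04 on the log2 scale (SE). Ccng2, the cyclin G gene driven by FoxO factors, had 146 ± 0.964 CPM in induced and 27.6 ± 0.967 CPM in uninduced cells (SD, n = 3 each). Ccng2 rose by 2.40 ± 0.05 (SE). Sesn3, also a FoxO target, had 54.7 ± 2.99 CPM in induced and 13.3 ± 2.10 CPM in uninduced cells (SD, n = 3 each), a log2 fold change of 2.04 ± 0.09 (SE). The part of FoxO factors in the levels of Ccng2 and Sesn3 was not tested. Counted per kb of exon, Sesn2 made up 86.2% ± 0.0859 of all sestrin counts in the induced group and 51.4% ± 1.76 in the uninduced group, and Sesn1 4.52% ± 0.162 in induced and 37.8% ± 1.496 in uninduced libraries (SD, n = 3 each).

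The other small and large subunits of ribonucleotide reductase fell too, Rrm2 by 0.40 ± 0.04 and Rrm1 by 0.45 ± 0.04 (SE). Rrm2b had 0.0257, 0.0263 and 0.0186 counts for each Rrm2 count in induced libraries, against 0.0409, 0.0418 and 0.0377 in uninduced libraries. The log2 ratio of Rrm2b to Rrm2 was lower in induced libraries by a difference of -0.78, with no overlap of groups, and the exact two-sided permutation test gave p = 0.1, the smallest possible. Of the Phlda family, Phlda1 rose by 1.27 ± 0.06 (SE), and Phlda2, with 2, 1 and 1 counts in uninduced libraries, reached 1.87 ± 0.385 CPM in induced cells (SD, n = 3). Cdkn1b, which encodes the inhibitor p27, rose by 0.34 ± 0.05 (SE), but was at -0.62 on plain library sizes.

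**Figure D3:**
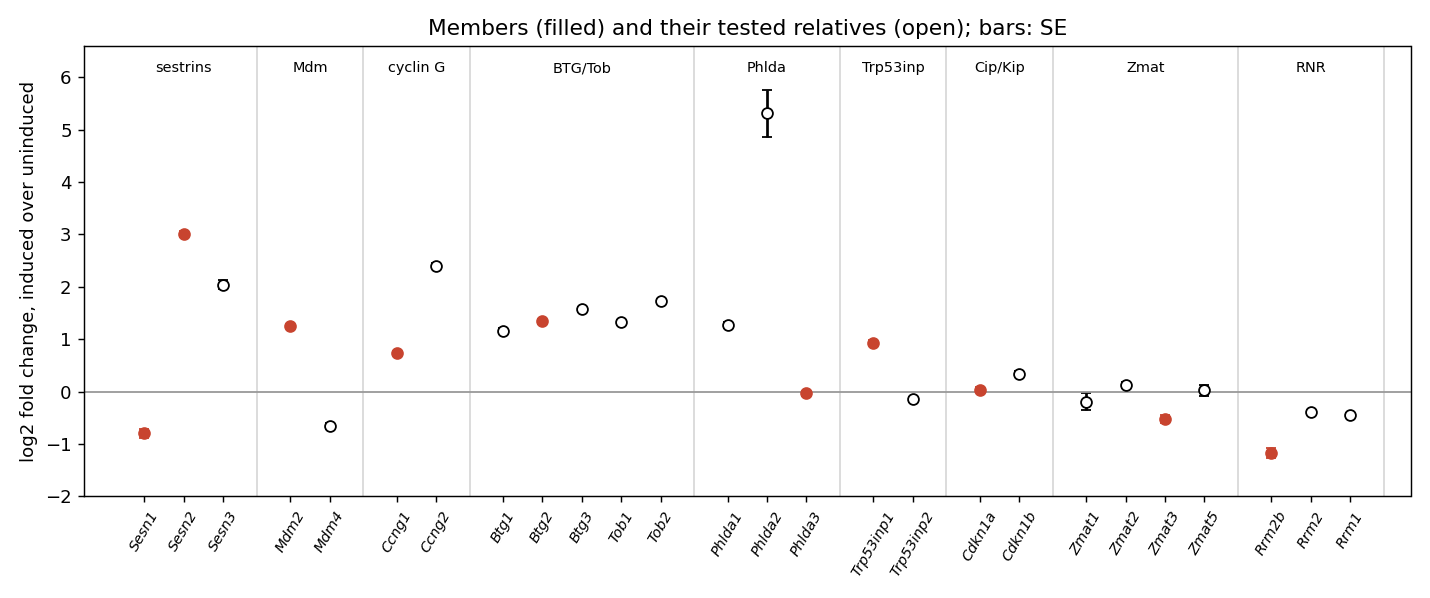
Log2 fold change, induced over uninduced, of the members (filled) beside their tested relatives (open) by family, with SE as bars (RNR, ribonucleotide reductase). Sesn1 at -0.80 stands apart from Sesn2 at 3.01 and Sesn3 at 2.04, while all 5 BTG/Tob genes lie between 1.16 and 1.73.

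The genes that control p53 also went both ways. Of 17 tested, 9 were higher and 7 lower, and 3 were higher and 10 lower on plain library sizes. Trp53 itself, the p53 gene, had 82.8, 75.8 and 82.3 CPM in induced libraries, against 92.7, 97.1 and 103 CPM in uninduced libraries. It fell by 0.28 ± 0.05 (SE, edgeR adjusted p = 1.9e-05), with no overlap of groups. Messenger RNA does not give the level of p53 protein, which is set largely by its breakdown. Cdkn2a, whose ARF product restrains Mdm2, had no count in any library. Mdm4 had 33.4, 36.2 and 35.5 CPM in induced and 52.6, 55.4 and 57.3 CPM in uninduced libraries. It fell by 0.65 ± 0.06 (SE), the opposite of Mdm2. There were 5.36, 4.88 and 4.94 counts of Mdm2 for each Mdm4 count in induced libraries and 1.46, 1.33 and 1.27 in uninduced libraries. The log2 ratio was higher by 1.90, and the exact two-sided permutation test gave p = 0.1, again the smallest possible.

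Of the kinase genes in the list of genes that control p53, Chek2, Atm, Atr, Chek1 and Prkdc were called lower and Hipk2 higher. Plk3 and Plk2, kinase genes of another list, are given with the other p53 targets. Chek2 was at 2.41 ± 0.85 CPM in induced and 8.17 ± 0.565 CPM in uninduced cells (SD, n = 3 each), and Atm at 14.5, 18.4 and 15.1 CPM in induced and 44.2, 36.7 and 34.1 CPM in uninduced libraries. Chek2 fell by 1.78 ± 0.17, Atm by 1.27 ± 0.11 and Atr by 0.78 ± 0.08 (SE). Hipk2, a kinase that phosphorylates p53 after damage, had 39.7 ± 2.35 CPM in induced and 18.99 ± 4.58 CPM in uninduced cells (SD, n = 3 each), and rose by 1.06 ± 0.16 (SE, edgeR adjusted p = 0.000584), but was at 0.09 and not called on plain library sizes. Ppm1d, the p53-induced phosphatase Wip1 that switches the damage response off, had 71.0 ± 1.37 CPM in induced and 15.97 ± 0.638 CPM in uninduced cells (SD, n = 3 each), a log2 fold change of 2.15 ± 0.06 (SE). The histone acetyltransferase genes Crebbp and Ep300, whose products are coactivators of p53, rose by 2.13 ± 0.07 and 1.10 ± 0.06 (SE).

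Other p53 targets also included genes that rose and genes that fell. Of 10 tested targets linked to cell death, 7 were higher and 3 lower, or 5 and 5 on plain library sizes. Among all genes tested 41.3% were higher and 41.2% lower, or 15.2% and 76.7% on plain library sizes. The median log2 fold change of these 10 was 0.98, against 0.39 for the members and -0.01 over all genes tested. Both lists were chosen with earlier results of these data known, so a difference between the 2 classes was not tested. Pmaip1, which encodes Noxa, had 394 ± 10.7 CPM in induced and 31.7 ± 0.613 CPM in uninduced cells (SD, n = 3 each), and the death receptor gene Eda2r had 105 ± 4.96 CPM in induced and 26.4 ± 0.267 CPM in uninduced cells (SD, n = 3 each). Aen, an apoptosis-enhancing nuclease gene, rose by 1.39 ± 0.05 (SE). Bax, which encodes a pore-forming protein of mitochondria, fell by 0.26 ± 0.05, and Pidd1 by 0.74 ± 0.12 (SE). Of 23 further targets, 13 were higher, 6 lower and 4 not called, or 7 higher and 15 lower on plain library sizes. The kinase genes Plk3 and Plk2 rose by 2.89 ± 0.05 and 1.90 ± 0.04 and the thiamine transporter gene Slc19a2 by 2.51 ± 0.06 (SE). Plk3 had 201 ± 8.33 CPM in induced and 27.2 ± 0.755 CPM in uninduced cells (SD, n = 3 each). Steap3, a ferrireductase gene, fell by 2.74 ± 0.10 and the tetraspanin gene Cd82 by 1.15 ± 0.05 (SE). Gadd45a, named after its value was seen because it is a classic damage gene, was at -0.05 ± 0.07 (SE, edgeR adjusted p = 0.485).

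The partners of the members' products moved in both directions. Of 15 genes for the kinases, cyclins and retinoblastoma proteins around p21, 6 were higher, 7 lower and 2 not called, with a median of -0.18, or 1 higher and 14 lower on plain library sizes. Ccnd1, which encodes cyclin D1, had the largest change of these. It had 16.98, 17.93 and 19.23 CPM in induced libraries and 161, 147 and 151 CPM in uninduced libraries, and fell by 3.08 ± 0.06 (SE, edgeR adjusted p = 1.8e-23). Ccnd3 fell by 1.26 ± 0.05 (SE). Ccnd2, which encodes the other D-type cyclin, was far less abundant, at 3.76, 2.65 and 3.33 CPM in induced libraries and 1.11, 0.873 and 0.787 CPM in uninduced libraries. Ccnd2 rose 3.51-fold (log2 1.81 ± 0.22 SE, edgeR adjusted p = 4.7e-08), with no overlap of groups, and was the 1 gene of these still called higher on plain library sizes, at 0.85. Pcna, which binds p21, rose by 0.71 ± 0.04 (SE) but was at -0.25 on plain library sizes. Of 20 genes of the GATOR, mTORC1, AMPK and AKT complexes on which sestrins and Phlda3 act, 5 were higher, 11 lower and 4 not called, with a median of -0.22, or 1 higher and 19 lower on plain library sizes. Prkaa2, an AMPK catalytic subunit gene, rose by 1.27 ± 0.07, while the regulatory subunit gene Prkab2 fell by 1.34 ± 0.08 and Seh1l, a GATOR2 gene, by 1.04 ± 0.05 (SE). Of 10 genes for partners of Btg2, those of the CCR4-NOT complex with Pabpc1, 5 were higher, 4 lower and 1 not called, or 0 higher and 9 lower on plain library sizes. Cnot2 rose by 1.00 ± 0.04 and Cnot6, a catalytic subunit gene, fell by 0.70 ± 0.05 (SE).

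Genes of the integrated stress response are given because Sesn2 answers to ATF4. Of 12 tested, 10 were higher and 2 lower, with a median of 0.57, or 4 higher and 8 lower on plain library sizes. The shares of all genes tested were 41.3% higher and 41.2% lower, or 15.2% and 76.7% on plain library sizes. Ppp1r15a, the phosphatase subunit Gadd34, had 240 ± 6.83 CPM in induced and 36.8 ± 2.24 CPM in uninduced cells (SD, n = 3 each). Atf3 rose by 4.48 ± 0.07, Trib3 by 1.34 ± 0.07 and Atf4 itself by 0.47 ± 0.04 (SE), the last of these at -0.49 on plain library sizes. The 2 called lower were Nupr1, which fell by 0.35 ± 0.07, and Slc7a11, which fell by 0.17 ± 0.05 (SE). The part of this response in the level of Sesn2 was not tested.

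**Figure D4:**
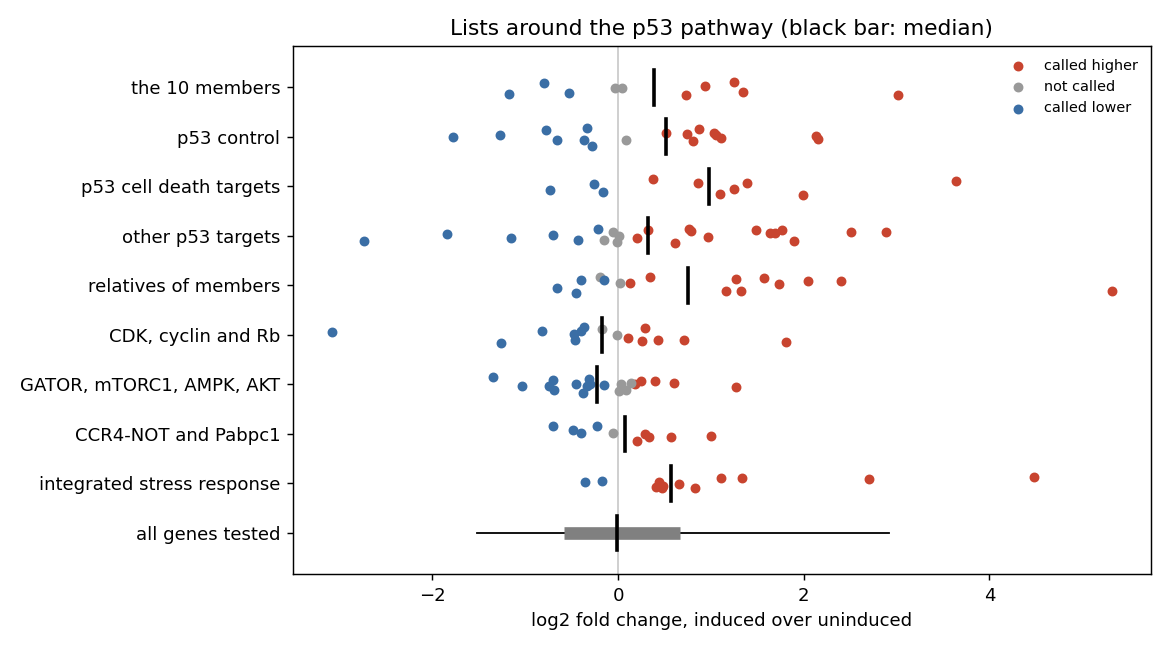
Log2 fold change, induced over uninduced, of the tested genes of each list (red called higher, grey not called, blue called lower), with the list's median as a black bar. The bottom row gives all genes tested, with a grey bar from -0.59 to 0.67 (the quartiles) and a thin line from -1.52 to 2.92 (the outer percentiles, 5 and 95). Each list has genes on both sides of 0, with medians from -0.22 to 0.98.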

How the data were processed

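Libraries of polyadenylated RNA from 6 cultures were prepared with a TruSeq RNA v2 kit, which does not mark strand, and sequenced in 1 pool, per the labels' protocols. Per the submitters' processing notes, CASAVA was used, reads were aligned with TopHat2 (2.0.12) on Bowtie2 (2.2.3), and the build was mm10. The deposited table held raw counts per Entrez gene for 24028 genes. What counted the reads, how multiply mapped reads were treated and which annotation was used is not given in the sources used here. Exons of Cdkn1a and Rrm2b overlap genes on the other strand by 273 and 734 bases in GENCODE M21, and such reads cannot be told apart.

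Counts were analysed in R 4.3.3 with edgeR 4.0.16: filterByExpr, TMM factors (0.712 to 0.719 in induced and 1.39 to 1.40 in uninduced libraries), glmQLFit with robust=TRUE and glmQLFTest on a model with the group alone. P-values are two-sided and Benjamini-Hochberg adjusted over 12969 genes. The SE was taken as the size of the log2 fold change over the root of the F statistic. Ratios of 2 genes used the counts as they are, and their log2 values counts with 0.5 added. Alternatives were DESeq2 1.42.0, limma 3.58.1 with voom, scaling by RLE, by the upper quartile or by plain library size, a looser and a stricter count filter, an adjusted p of 0.01, a replicate block and each library left out. The test was checked on simulated counts.

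The members and gene lists were chosen with earlier results of these data known. All members were described, and of each other list up to 3 of the largest called increases and decreases, with Trp53, Mdm4, Sesn3, Rrm2 and Ccng2 whatever their values. Btg1, Btg3, Tob1, Tob2, Phlda1, Cdkn1b, Cdkn2a, Atf4, Hipk2, Chek1, Prkdc and Gadd45a fall outside this rule and were chosen after their values were seen. For 1 listed gene no value is reported here. Replicates of a group differed by 2.40 to 6.77 times counting noise (chi-square per degree of freedom), so none looked like a library deposited more than once. That spread may be biological or technical.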

Additional observations from a re-analysis of the deposited data

How the results depend on the processing

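The 5 members called higher and 3 called lower numbered the same with DESeq2, limma-voom, RLE scaling, a filter at 1 CPM, an adjusted p of 0.01 and each library left out. With upper-quartile scaling, where the median of all genes tested was -0.16, 5 members were lower, Cdkn1a at -0.11 (edgeR adjusted p = 0.019) and Phlda3 at -0.18 among them. On plain library sizes 3 were higher and 6 lower, with Cdkn1a at -0.92, Ccng1 at -0.23, Trp53inp1 at -0.028 and Phlda3 at -0.997. Cdkn1a was at -0.033 without the low-count filter, where Phlda3 was called at -0.11 (edgeR adjusted p = 0.0382), and Phlda3 ran from -0.071 to 0.013 with a library left out, above 0 only without induced replicate 2. Of 150 values of single members under alternatives, 141 kept their direction and their side of the threshold. Of the rest, 6 reversed direction and 3 were called only under the alternative. The values at an adjusted p of 0.01 are those of the main fit, so their direction could not change. Those with a library left out share the remaining libraries with that fit, so the tally is not one of separate checks. The share of called genes that were higher was 50.02% with TMM, 42.6% with upper-quartile scaling and 16.6% on plain library sizes. Genes called numbered 10362 to 10691 with a library left out, against 10698. Left-out libraries gave 3.76 to 3.86 for the Sesn2 to Sesn1 log2 ratio difference, -0.87 to -0.62 for Rrm2b to Rrm2 and 1.86 to 1.96 for Mdm2 to Mdm4.

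The replicate numbers are only numbers. Deviations of same-numbered libraries correlated at 0.0543, 0.0155 and 0.0276, each the highest for its library, which is a hint from the data and not from the design. With the replicate block 10813 genes were called, and no call among the 10 members changed. The within-number differences of the 3 ratios were 3.81, -0.78 and 1.90, with an exact sign-flip p = 0.25, the smallest that 3 pairs allow. With 3 libraries per group, exact tests of single ratios cannot pass 0.05.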
